A study of Mus musculus with 12 samples.

Results

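The proteins examined here coat the lipid droplets of liver cells or control how fast the triglyceride inside is broken down. A lipid droplet is a core of triglyceride and cholesteryl ester under a single layer of phospholipid. Proteins of the CIDE family (Cidea, Cideb, Cidec) sit where droplets touch and promote the transfer of lipid into the larger one, perilipins (Plin2, Plin3, Plin4, Plin5) cover the surface and limit access of lipases, and Pnpla2 (adipose triglyceride lipase, ATGL) starts triglyceride hydrolysis under the inhibitors G0s2 and Hilpda. Steatosis, the filling of hepatocytes with such droplets, is a defining feature of nonalcoholic steatohepatitis (NASH).

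The genes were chosen by symbol, and all 10 were listed in both deposited tables, as 10 of 16703 genes in the liver table and 10 of 16273 in the LSEC table. RNA-seq libraries came from C57BL/6 mice on a NASH diet (D09100301, Research Diets) or on chow, as whole liver and as purified liver sinusoidal endothelial cells (LSEC), with 3 libraries in each of the 4 groups. The labels attach a protocol with 36 weeks of NASH diet to the chow samples too, and name no transgene or agent in any group. LSEC were the cells of the non-parenchymal fraction that were left after depletion of CD11b+ cells and were then captured on CD146 beads. Nothing in the labels says that the libraries of a group came from separate animals, so p-values measure the spread between these libraries, which may be technical.

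Values are normalized reads, the authors' read counts divided by 1 factor per library. Totals of recovered reads ranged between 47000197 and 57397720 for liver, and between 18527017 and 19402863 for LSEC. The endothelial markers were high in LSEC as a rate over total reads (RPM), which does not rest on the scaling of either table: their sum was 16554 to 18408 RPM in NASH LSEC and 23364 to 24633 RPM in chow LSEC, against 504 to 521 RPM in NASH liver and 450.1 to 551 RPM in chow liver. In bulk liver, fewer cells of a type and less RNA per cell cannot be told apart. LSEC libraries also held hepatocyte RNA, in amounts that differed widely between libraries and are given beside the LSEC results. Differences are on the log2 scale of normalized reads + 1 (NASH over chow, ± SE), tested with limma and called at a Benjamini-Hochberg adjusted p under 0.05 over all genes of a table.

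The promoters of 3 members are shown because Plin4 and Plin5 are neighbours that changed in opposite directions in liver, and because Hilpda is known as a target of hypoxia-inducible factors. In mm10, Plin4 (chr17:56100591-56109803) and Plin5 (chr17:56111601-56117596) lie on the minus strand with 1797 bases between them, and Hilpda (chr6:29272488-29275446) lies on the plus strand. Each sequence is the 250 bases before a RefSeq transcript start (GRCm38.p6) on the gene's own strand. Capitals mark AGGTCA, the motif of nuclear receptors such as PPARs, or the hypoxia core ACGTG or GCGTG, on either strand.
Plin4, chr17:56109783-56110032, minus strand: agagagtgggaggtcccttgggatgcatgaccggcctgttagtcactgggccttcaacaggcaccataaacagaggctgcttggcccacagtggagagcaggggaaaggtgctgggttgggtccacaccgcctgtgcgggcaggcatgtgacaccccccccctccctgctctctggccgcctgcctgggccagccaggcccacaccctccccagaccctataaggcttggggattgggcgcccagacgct
Plin5, chr17:56117549-56117798, minus strand: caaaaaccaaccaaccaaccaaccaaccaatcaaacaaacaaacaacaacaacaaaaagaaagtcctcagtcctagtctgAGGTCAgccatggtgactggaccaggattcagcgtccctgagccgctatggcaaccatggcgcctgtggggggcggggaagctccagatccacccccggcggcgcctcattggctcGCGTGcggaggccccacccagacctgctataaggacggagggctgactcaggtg
Hilpda, chr6:29272376-29272625, plus strand: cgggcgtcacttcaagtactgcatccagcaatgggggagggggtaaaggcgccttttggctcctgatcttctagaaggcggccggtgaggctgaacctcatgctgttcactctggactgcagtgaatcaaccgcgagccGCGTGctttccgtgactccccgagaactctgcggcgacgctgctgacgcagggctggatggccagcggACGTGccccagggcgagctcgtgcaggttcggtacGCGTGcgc
The Plin4 window held neither motif. The Plin5 window held AGGTCA at 170 bases and a core at 54 bases before the start, and the Hilpda window held cores at 111, 43 and 8 bases. The other Hilpda start had neither motif, and the other Plin5 start had 1 core. Of the members not printed, Plin2 held AGGTCA at 218 bases and a core at 86 bases. G0s2 held a core at 142 bases, and 1 Cidec start held a core at 79 bases. Of 32851 promoter windows of that length, 14.02% held AGGTCA and 38.6% held a core, so a match is a description and not a site. The promoter table matched 9 of the 10 members.

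In liver, 9 of the 10 members differed between diets, 5 of them higher in NASH (Cidea, Cidec, Plin3, Plin4 and Hilpda) and 4 lower (Cideb, Plin5, G0s2 and Pnpla2), while Plin2 did not pass the test. Among all liver genes 46.0% were called, 25.0% higher and 21.0% lower, so a call by itself was common in this comparison. The members' median difference was 0.10, against 0.02 over all genes. Scaling by total reads moved the median of all genes by 0.40 in liver and 0.14 in LSEC. In liver it left 7 members called, 5 higher and 2 lower, where 8782 of all 16703 genes were called, 7878 higher and 904 lower. The NASH and chow libraries of the 9 called members did not overlap, where 29.8% of all genes had every NASH library above every chow library and 27.3% had every NASH library below.

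Cidea, best known from brown fat, where it enlarges droplets, showed the greatest change of the members. It had 1268, 3123 and 1556 normalized reads in NASH livers, against 55.8, 25.9 and 10.3 in chow livers. Every NASH library lay far above every chow library, and the ratio of the means was 64.7 (log2 difference 6.15 ± 0.52, adjusted p = 2.6e-05). Adipocyte markers were measured beside it, and 3 of the 7 measured adipocyte markers (of 9 listed) rose in liver (Cfd, Fabp4 and Adrb3) and 2 fell (Pck1 and Adipoq). Cfd, the fat-cell protease adipsin, had 1336, 1076 and 882 normalized reads in NASH livers, against 259.8, 153 and 8.20 in chow livers (log2 difference 3.92 ± 0.98, adjusted p = 0.0091). Fabp4, a fatty acid binding protein of fat cells, macrophages and endothelium, had 3113, 2045 and 2567 normalized reads in NASH livers, against 752, 714 and 621 in chow livers (1.87 ± 0.15, adjusted p = 1.8e-05). Adrb3, an adrenergic receptor, differed by 0.66 (adjusted p = 0.0347), and its libraries overlapped. The adipocyte markers' summed level was 42348 to 98747 normalized reads in NASH livers and 263624 to 275175 in chow livers, most of it Pck1, which hepatocytes also make. Adipoq, the fat hormone adiponectin, had 0, 2.01 and 1.61 normalized reads in NASH livers, against 39.2, 16.2 and 2.05 in chow livers. Plin1, the perilipin of fat cells, had 0, 0 and 1.61 normalized reads in NASH livers, against 20.2, 10.8 and 0 in chow livers (adjusted p = 0.112). Adrb3, Adipoq and Plin1 were picked once their values were known. The part of fat cells in the Cidea result was not tested.

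Cidec, the CIDE protein of white fat and fatty liver (FSP27), rose less steeply. It had 11833, 8678 and 8146 normalized reads in NASH livers, against 6987, 5074 and 2205 in chow livers, so that NASH lay above chow but the gap to chow library 1 was small. The log2 difference was 1.14 ± 0.34 (adjusted p = 0.0218). That call was lost without any 1 of the 3 NASH libraries (adjusted p = 0.113, 0.0503 and 0.0515) and in DESeq2 (0.0594), and the authors' deposited table gives an adjusted p of 0.0582. Cideb, which in hepatocytes helps load lipid onto VLDL, had 2441, 2635 and 2285 normalized reads in NASH livers, against 3488, 3468 and 3108 in chow livers, a fall of 0.45 ± 0.09 on the log2 scale (adjusted p = 0.0029). Scaled by total reads Cideb did not pass (log2 difference −0.04, adjusted p = 0.732). Of its 1488 exon bases 1136 overlap Nop9 on the opposite strand, and the liver kit does not mark strand, so reads of these genes cannot be told apart there. Nop9, a nucleolar protein gene chosen for this overlap, differed by −0.36 in liver (adjusted p = 0.0091).

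**Figure D1:**
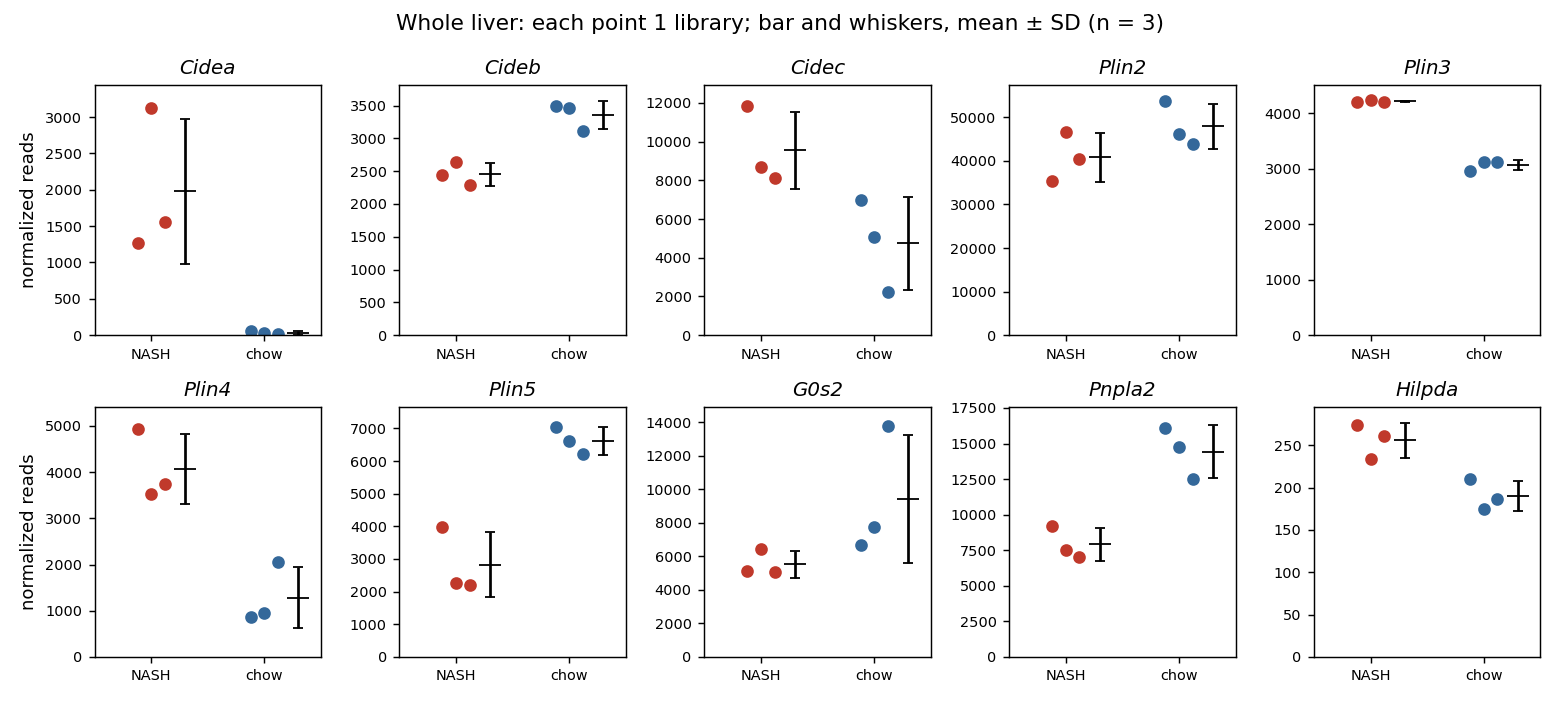
Normalized reads of each member (y axes, linear, from 0) in the 3 NASH and 3 chow liver libraries (points), with the group mean and SD. Every member but Plin2 shows NASH and chow points apart, with Cidea at 1268 to 3123 in NASH and 10.3 to 55.8 in chow.

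Plin2, the main perilipin of liver and bound to droplets of any size, was the most abundant member in both diets and did not pass the test. It had 35441, 46687 and 40524 normalized reads in NASH livers, against 53797, 46152 and 43925 in chow livers, and the groups overlapped. The log2 difference was −0.23 ± 0.14, with a 95% interval of −0.54 to 0.07. Plin3, which is found in most tissues and binds small new droplets, was the most even member. It had 4207, 4235 and 4206 normalized reads in NASH livers, against 2966, 3116 and 3132 in chow livers, a rise of 0.46 ± 0.075 on the log2 scale (adjusted p = 0.00095).

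Plin4 and Plin5, whose promoters are printed above, moved in opposite directions. Plin4, a perilipin known from fat and muscle, had 4944, 3519 and 3750 normalized reads in NASH livers, against 868, 940 and 2044 in chow livers. Chow library 3 was the highest of the chow livers and still below every NASH library, and the log2 difference was 1.76 ± 0.28 (adjusted p = 0.00082). Plin5, which ties droplets to mitochondria in tissues that burn fat, had 3982, 2272 and 2217 normalized reads in NASH livers, against 7042, 6610 and 6207 in chow livers. It fell by 1.28 ± 0.19 on the log2 scale (adjusted p = 0.00062), with NASH library 1 the nearest to chow. The same library stood apart for Lpin1, a phosphatidate phosphatase named after its values were seen, at 15659, 2477 and 2406 normalized reads in NASH livers against 14316, 15647 and 15830 in chow livers.

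Pnpla2, the lipase itself, fell in NASH livers. It had 9230, 7491 and 7016 normalized reads in NASH livers, against 16118, 14720 and 12475 in chow livers, a log2 difference of −0.87 ± 0.13 (adjusted p = 0.00054). Every NASH library lay below every chow library, and the call held under every alternative that was run. Its inhibitor G0s2 had 5099, 6462 and 5051 normalized reads in NASH livers, against 6683, 7744 and 13772 in chow livers, a log2 difference of −0.70 ± 0.23 (adjusted p = 0.0313). Chow library 3 was far above the rest, and the G0s2 call was lost without NASH library 1 (adjusted p = 0.123) or 3 (0.111), in DESeq2 (0.0710) and with scaling by total reads (0.340). In RPM, G0s2 overlapped between diets, at 110, 137 and 118 in NASH livers and 109, 125 and 235 in chow livers. Hilpda, the other inhibitor, was scarce in liver and higher in NASH. It had 274, 233 and 261 normalized reads in NASH livers, against 210, 175 and 187 in chow livers (log2 difference 0.42 ± 0.15, adjusted p = 0.0436). The Hilpda call was lost without any 1 library other than NASH library 2 (adjusted p = 0.0542 to 0.153).

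Reads per kilobase of merged exon allow levels of different members to be set side by side. In NASH livers the order of mean normalized reads per kilobase was Plin2 (11641 ± 1604), G0s2 (6357 ± 920), Cidec (5147 ± 1074), Pnpla2 (2620 ± 386), Cidea (1778 ± 895), Cideb (1649 ± 118), Plin5 (1353 ± 481), Plin3 (1114 ± 4.45), Plin4 (705 ± 132) and Hilpda (232 ± 18.7; SD, n = 3). In chow livers it was Plin2 (13656 ± 1474), G0s2 (10792 ± 4390), Pnpla2 (4781 ± 609), Plin5 (3172 ± 200.1), Cidec (2562 ± 1297), Cideb (2255 ± 144), Plin3 (811 ± 24.2), Plin4 (222 ± 114), Hilpda (173 ± 16.2) and Cidea (27.5 ± 20.7; SD, n = 3). Cidea was thus 5 of 10 in NASH and last in chow. The level and rank of Cideb are uncertain because of its overlap with Nop9, and so is the place of Cidea just above it in NASH. Among neighbours, G0s2 and Cidec, and each step down the order from Pnpla2 through Cidea, Cideb and Plin5 to Plin3, overlapped between libraries in NASH. In chow, Plin2 overlapped G0s2, Cidec overlapped both Plin5 and Cideb, and Plin4 overlapped Hilpda.

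The makeup of the CIDE and perilipin families was then compared within each liver library, where the scaling cancels. Cidea made up 12.4%, 30.3% and 19.1% of the per-kilobase CIDE reads in NASH livers, against 0.812%, 0.457% and 0.280% in chow livers. Cideb made up 17.9%, 19.2% and 21.0% in NASH livers, against 38.1%, 45.8% and 63.6% in chow livers, so its share was lower in every NASH library. The Cidec share overlapped, at 69.7%, 50.6% and 60.0% in NASH livers and 61.1%, 53.7% and 36.2% in chow livers. These shares are given without a test. The Nop9 overlap over 1136 of the 1488 Cideb exon bases does not cancel in them, so every CIDE share carries that uncertainty.

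Among perilipins, Plin2 kept the bulk of the per-kilobase reads, with 72.3%, 82.5% and 80.3% in NASH livers and 78.0%, 76.0% and 75.1% in chow livers. Plin5 made up 13.7%, 6.76% and 7.40% in NASH livers, against 17.2%, 18.3% and 17.9% in chow livers. Plin4 made up 6.13%, 3.78% and 4.52% in NASH livers, against 0.766%, 0.941% and 2.12% in chow livers. The Plin3 share was 7.96%, 6.94% and 7.74% in NASH livers, against 3.99%, 4.76% and 4.96% in chow livers, so the shares of Plin3, Plin4 and Plin5 did not overlap between diets.

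**Figure D2:**
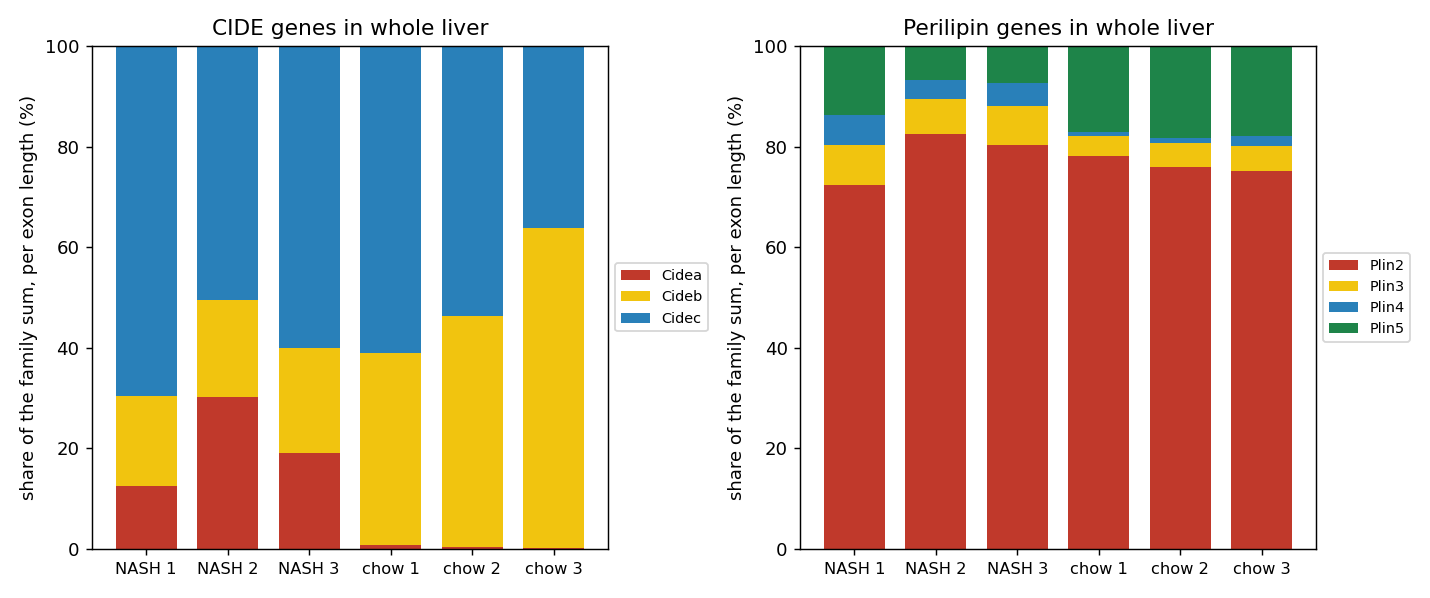
Share (y axis, %) of each CIDE and perilipin gene in its family's per-kilobase reads in each liver library (bars, NASH libraries left of chow libraries). Cidea holds 12.4% to 30.3% of CIDE reads in NASH and under 1% in each chow library (0.280% to 0.812%). The CIDE shares carry the uncertainty of the Cideb overlap with Nop9.

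Relative to the lipase, the partners also changed in different ways. The per-kilobase ratio of Plin2 to Pnpla2 was 3.30, 5.36 and 4.97 in NASH livers, against 2.87, 2.70 and 3.03 in chow livers. Plin5 to Pnpla2 was 0.624, 0.439 and 0.457 in NASH livers, against 0.632, 0.650 and 0.720 in chow livers. Hilpda to Pnpla2 was 0.081, 0.085 and 0.102 in NASH livers, against 0.036, 0.033 and 0.041 in chow livers. G0s2 to Pnpla2 overlapped, at 1.92, 2.99 and 2.50 in NASH livers and 1.44, 1.82 and 3.83 in chow livers.

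In LSEC, 2 of the 10 members passed the test, Cidea and Cidec, both higher in NASH; among all LSEC genes 8.11% of genes were called, 5.24% higher and 2.86% lower. The members' median difference was 1.13, against 0.0001 over all genes, and 4 members had an unadjusted p under 0.05, all higher in NASH. The share of all LSEC genes under that unadjusted threshold was not counted, so this number is a description only. Both called genes were scarce. Cidea had 3.86, 17.7 and 31.6 normalized reads in NASH LSEC, against 0, 0 and 1.02 in chow LSEC. These were 57 reads in all NASH libraries together against 1 read in chow, a ratio of 51.1 with a 95% counting interval of 8.81 to 2053 that covers counting error only. The log2 difference was 3.51 ± 0.77 (adjusted p = 0.0390). Its size rests on the added 1, with 5.87 at a pseudocount of 0.1 and 1.29 at 10, 5.24 in edgeR and 5.56 in DESeq2. Cidec had 26.1, 53.2 and 114 normalized reads in NASH LSEC, against 5.22, 6.53 and 12.3 in chow LSEC (log2 difference 2.70 ± 0.59, adjusted p = 0.0390). Neither gene passed when any 1 library other than NASH library 1 was left out (adjusted p = 0.0737 to 0.133 for Cidea and 0.0717 to 0.125 for Cidec). Cidea also failed with a pseudocount of 10 (adjusted p = 0.0825), and with a mean of at least 10 required it was not tested.

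Hepatocyte RNA in the LSEC libraries ran alongside. None of the 12 hepatocyte markers passed limma there, nor edgeR or DESeq2, and 2 had an unadjusted p under 0.05. Their median log2 difference was 1.87, beside 1.13 for the members, 1.55 for the macrophage markers and 1.47 for the stellate markers. The hepatocyte markers summed to 40632 to 87617 normalized reads in NASH LSEC and 6995 to 87589 in chow LSEC, and of the markers only Ass1, in chow libraries 1 and 3, was at 0. Ass1 was also low in liver, at 22.7 normalized reads or fewer in every library, and was named after its values were seen, as was Alb. Albumin (Alb) stood at 27790, 34837 and 54247 in NASH LSEC, against 11003, 61571 and 5800 in chow LSEC. The highest Cidea and Cidec levels of the NASH group were in the library with the most Alb. In chow library 2, which held still more Alb, Cidea was at 0 and Cidec at 6.53 normalized reads. Chow livers themselves had only 0.0245 to 0.145 Cidea reads per 10000 Alb reads, so that 0 cannot tell sources of Cidea apart. Macrophage markers rose too, 6 of 10 called higher, with sums of 29839 to 36716 normalized reads in NASH LSEC and 7552 to 21868 in chow LSEC. The part of these other cells in the Cidea and Cidec results was not tested.

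**Figure D3:**
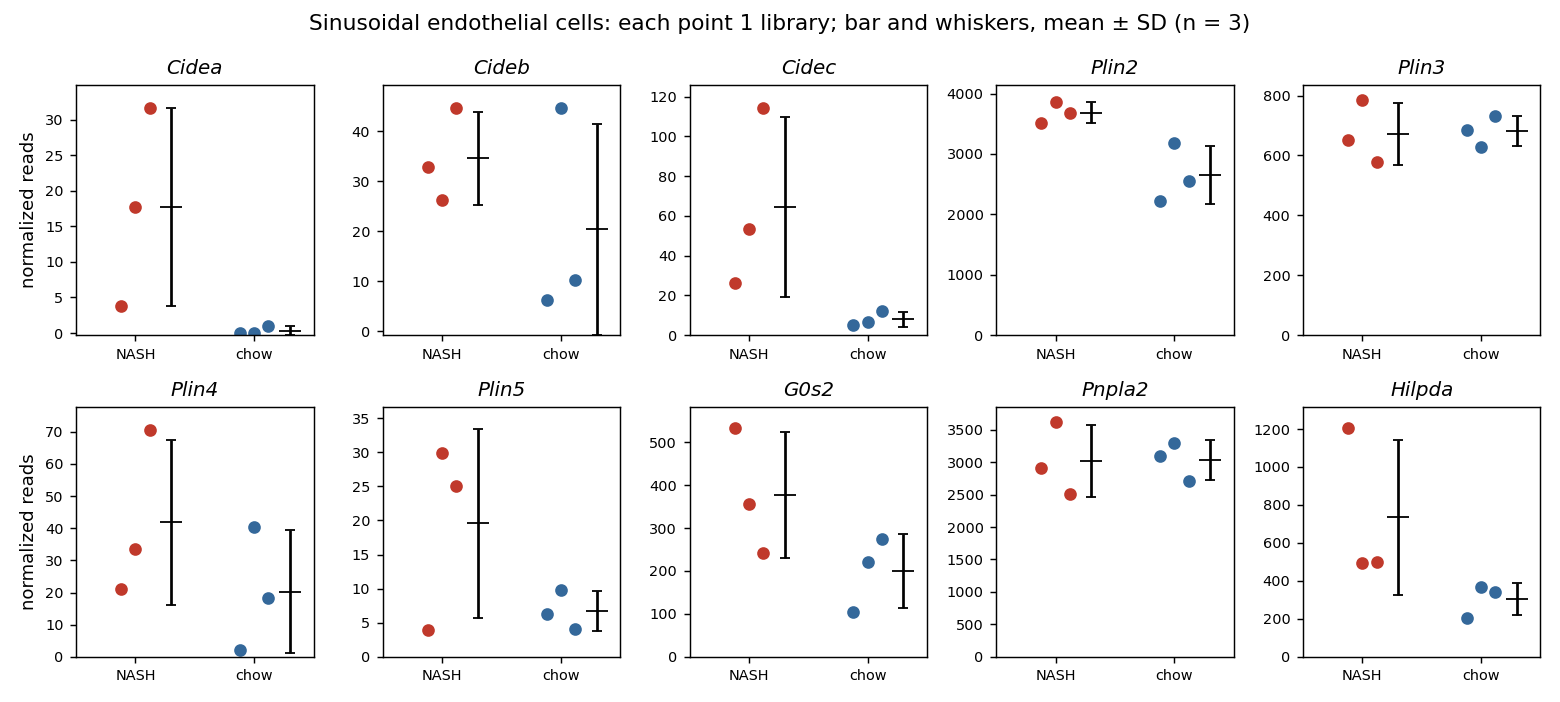
Normalized reads of each member (y axes, linear) in the 3 NASH and 3 chow LSEC libraries (points), with the group mean and SD. Cidea, Cidec, Plin2 and Hilpda show every NASH point above every chow point, and Pnpla2 and Plin3 overlap.

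The other members were weighed in LSEC against their spread. Hilpda had 1205, 496 and 502 normalized reads in NASH LSEC, against 206, 367 and 342 in chow LSEC. All NASH libraries lay above all chow libraries, as for 16.5% of genes in this table, with a log2 difference of 1.18 ± 0.39 that missed the threshold (adjusted p = 0.111). It passed in DESeq2 on recovered reads (adjusted p = 0.0162), and the authors' deposited table gives it an adjusted p of 0.0155. Plin2 had 3520, 3861 and 3673 normalized reads in NASH LSEC, against 2220, 3174 and 2558 in chow LSEC (log2 difference 0.49 ± 0.15, adjusted p = 0.0902), again without overlap. Plin2 passed with scaling by total reads (adjusted p = 0.0403) and without chow library 2 (0.0439). G0s2 overlapped, with 533, 356 and 242 normalized reads in NASH LSEC and 106, 220 and 274 in chow LSEC. Pnpla2 overlapped, and had 2912, 3613 and 2513 normalized reads in NASH LSEC, against 3094, 3299 and 2703 in chow LSEC (log2 difference −0.02, 95% interval −0.40 to 0.35), and Plin3 differed by −0.03 (95% interval −0.39 to 0.33). Cideb, Plin4 and Plin5 were low and scattered, with log2 differences of 1.16, 1.49 and 1.10 and adjusted p of 0.327, 0.365 and 0.402.

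Plin2, Pnpla2 and G0s2 were among the 4 highest members per kilobase in every group of both tissues. Mean normalized reads per kilobase in NASH LSEC were 1049 ± 48.6 for Plin2, 998 ± 184 for Pnpla2, 666 ± 369 for Hilpda, 433 ± 169 for G0s2 and 177 ± 27.6 for Plin3, and 34.8 or less for the others (SD, n = 3). In chow LSEC they were 1004 ± 100.2 for Pnpla2, 755 ± 138 for Plin2, 276 ± 78.5 for Hilpda, 229 ± 98.9 for G0s2 and 180 ± 13.5 for Plin3, and 13.7 or less for the others (SD, n = 3). Hilpda was thus 3 of 10 in both LSEC groups. In NASH LSEC, Plin2 overlapped Pnpla2, Pnpla2 overlapped Hilpda, and Hilpda overlapped G0s2. In chow LSEC, Pnpla2 overlapped Plin2, Hilpda overlapped G0s2, and G0s2 overlapped Plin3. The Hilpda to Pnpla2 ratio was 1.13, 0.376 and 0.547 in NASH LSEC, against 0.182, 0.304 and 0.346 in chow LSEC.

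Setting each member against Alb in the same library gives its level relative to that 1 hepatocyte transcript. Alb itself lay lower in NASH livers, at 1962587 to 2101050 normalized reads, against 3858625 to 4348774 in chow livers. It did not pass limma (log2 difference −1.03 ± 0.47, adjusted p = 0.0993), while DESeq2 called all 12 hepatocyte markers lower in liver. Values per Alb read are therefore no measure of the change with diet. Hilpda had 434, 142 and 92.5 reads per 10000 Alb reads in NASH LSEC, against 1.30, 1.16 and 1.33 in NASH livers. Plin2, Plin3, G0s2, Pnpla2 and Hilpda were higher per Alb read in every LSEC library than in every liver library. The lowest LSEC value exceeded the highest liver value 2.22 times for Plin2, 4.77 for Plin3, 1.08 for G0s2, 10.5 for Pnpla2 and 44.8 for Hilpda. Plin5 was lower per Alb read in every LSEC library. The share of all genes above or below in this way was not counted, so these orders are a description only. Hepatocyte markers, Alb among them, summed to 355 to 4858 RPM in LSEC, against 79200 to 123685 RPM in liver. Division by Alb therefore raises the LSEC values of genes that other cells also make. Cidea per 10000 Alb reads was 1.39, 5.09 and 5.83 in NASH LSEC, below the 6.04, 15.5 and 7.93 of NASH livers, and Cidec was 9.39, 15.3 and 21.1 in NASH LSEC, below the 56.3, 43.1 and 41.5 of NASH livers. Over both diets LSEC and liver overlapped for both genes. In chow, Cidec was 4.75, 1.06 and 21.2 in LSEC and 18.1, 11.7 and 5.27 in liver, and Cidea was 0, 0 and 1.76 in LSEC and 0.145, 0.0596 and 0.0245 in liver. The Cidea value of 1.76 is 1 read, in the LSEC library with the least Alb.

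**Figure D4:**
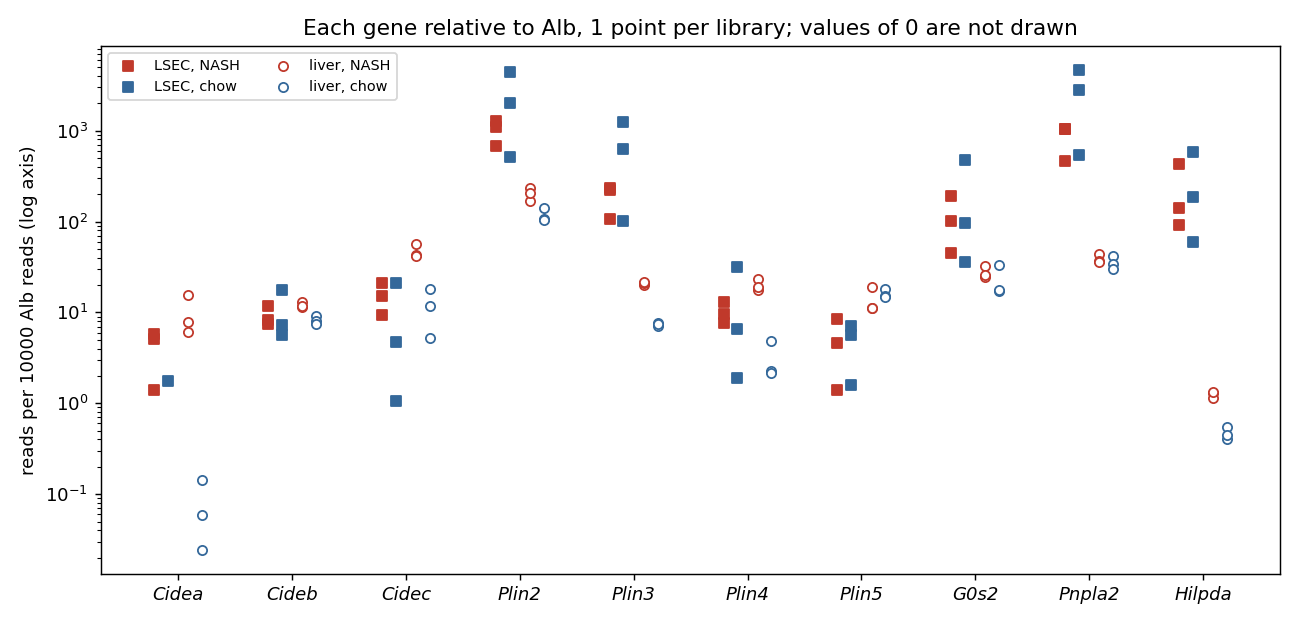
Reads of each member per 10000 Alb reads (log axis) in NASH and chow LSEC and in NASH and chow liver (points, 1 per library). Hilpda and Pnpla2 sit above every liver library in all LSEC libraries, Plin5 sits below, and 2 values of 0 (Cidea in chow LSEC) are not drawn.

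The change with diet differed between liver and LSEC for 3 members, each less positive in liver, where 19.5% of the 15788 shared genes differed, 11.5% more positive and 7.99% less positive in liver. The log2 difference in liver minus that in LSEC was −1.65 ± 0.48 for G0s2 (adjusted p = 0.0324), −0.72 ± 0.20 for Plin2 (0.0201) and −0.85 ± 0.21 for Pnpla2 (0.0101). Pnpla2 passed under all alternatives that were run. The G0s2 call was lost without liver chow library 3 (adjusted p = 0.0638), LSEC NASH library 1 (0.106) or 2 (0.0838), LSEC chow library 1 (0.0544), and with scaling by total reads (0.0547). The Plin2 call was lost without liver chow library 1 (0.0521), LSEC NASH library 2 (0.0539) or 3 (0.0555), LSEC chow library 3 (0.0666), and with scaling by total reads (0.0930). The difference was 2.65 ± 0.93 for Cidea (adjusted p = 0.0619). That value moved with the pseudocount, to 4.38 at 10 (adjusted p = 9.6e-05), and passed with scaling by total reads (2.97, adjusted p = 0.0323), while the DESeq2 log2 differences were 6.02 in liver and 5.56 in LSEC. It was −2.38 ± 0.78 for Plin5 (0.0671), 0.49 ± 0.17 for Plin3 (0.0677), and the others had an adjusted p of 0.131 or more.

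**Figure D5:**
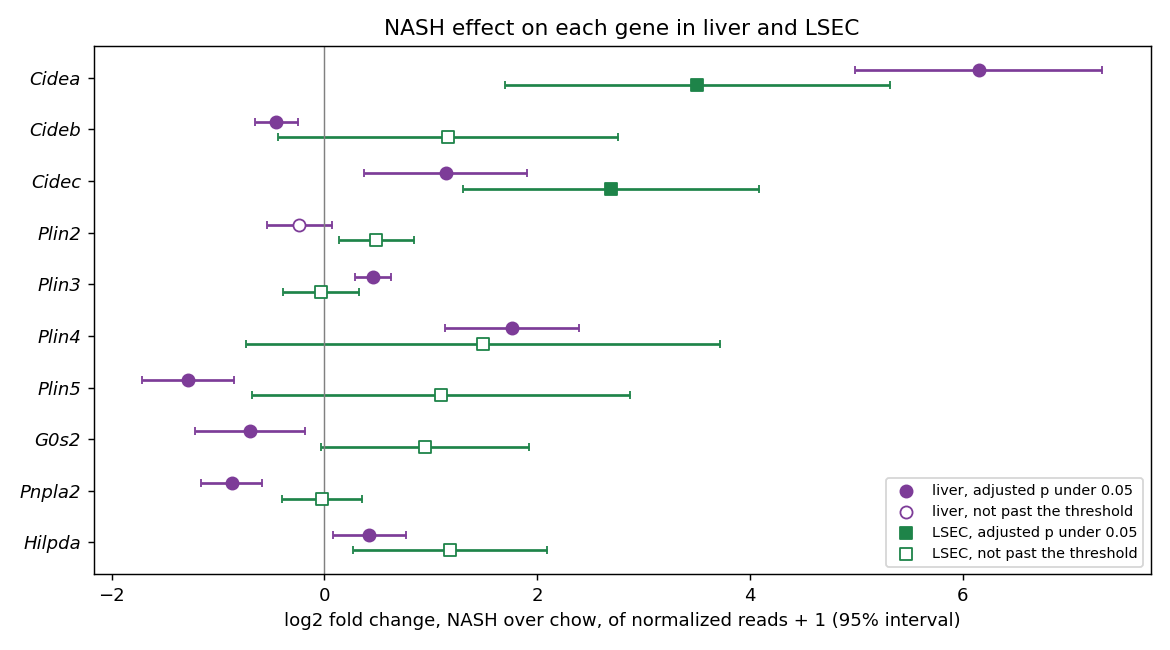
Log2 difference of NASH over chow (x axis, points with 95% interval) for each member in liver and in LSEC. Liver Pnpla2 and Plin5 lie below 0 (−0.87 and −1.28), and Cidea and Cidec lie above 0 in both tissues.

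The rest of the pathway was measured from lists of genes by function. Among all liver genes 46.0% were called, 25.0% higher and 21.0% lower. Among all LSEC genes 8.11% were called, 5.24% higher and 2.86% lower. The list counts here and in the next paragraphs stand beside these shares and are a description only. Of 15 partners in lipolysis, 4 rose and 5 fell in NASH livers and 6 did not pass, with a median of −0.16; Pnpla8, a phospholipase, differed by −0.72, the triglyceride esterase Ces1g by 0.75 and the lipase Ddhd2 by −0.71. Abhd5, the coactivator of Pnpla2, had a log2 difference of 0.13 in liver (adjusted p = 0.256) and −0.15 in LSEC (0.560). In LSEC, 1 of 13 measured partners rose, the hormone-sensitive lipase gene Lipe (0.94 ± 0.19, adjusted p = 0.0324), and 12 did not pass, among them the lysosomal lipase Lipa (0.43, adjusted p = 0.0770). Abhd5 was named after its values were seen.

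Of 21 measured genes for building and filling droplets, 4 rose and 10 fell in NASH livers, with a median of −0.25. The monoacylglycerol acyltransferase gene Mogat1 rose by 2.63, and Mettl7b, a droplet protein, and Lpin2, a phosphatidate phosphatase, fell by 0.87 and 1.07 on the log2 scale. In LSEC 1 of 20 rose, Mogat1, with 4.83, 2.80 and 10.2 normalized reads in NASH LSEC and 0 in every chow LSEC library, and Aup1, a droplet surface protein, differed by −0.53 (adjusted p = 0.0611). The Mogat1 call rests on few reads: edgeR called no gene of this list in LSEC and DESeq2 called 3, and 9 had an unadjusted limma p under 0.05.

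Nuclear receptors of the PPAR family and their textbook targets split by member. In NASH livers 12 of 20 fell and 5 rose, with a median of −0.64: the fatty acid hydroxylases Cyp4a14 and Cyp4a10 differed by −4.78 and −3.56, and the thioesterase Acot1 by −2.93. Pparg rose by 1.38 and the fatty acid transporter Cd36 by 1.77. In LSEC 7 of 20 rose and 13 did not pass, with a median of 1.63, and Cd36 (1.40, adjusted p = 0.0061) and Pparg (1.60, adjusted p = 0.0089) had the smallest adjusted p. Of 16 hypoxia-inducible genes, 3 rose and 3 fell in NASH livers: the kinase Pdk1 fell by 0.78 and the mitophagy protein Bnip3 by 0.98, while the carbonic anhydrase Car9 rose by 1.58. In LSEC 2 of 16 rose, the glucose transporter Slc2a1 (1.76, adjusted p = 0.0138) and the prolyl hydroxylase Egln3 (2.34, adjusted p = 0.0359).

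Markers of the other cells of liver moved too. In NASH livers 8 of 12 hepatocyte markers fell, among them the transaminase Tat (−2.67), the urea cycle enzyme Cps1 (−2.34) and the transcription factor Hnf4a (−1.06). Macrophage markers rose in 8 of 10 (Itgax, Gpnmb and Trem2 by 4.44, 6.36 and 4.11) and stellate cell markers in 5 of 8 (Col1a1 by 5.18). Endothelial markers rose in 1, a call that DESeq2 did not make, and fell in 5 of 10. In LSEC 4 of 8 stellate markers rose, and of 10 endothelial markers Lyve1 was the riser and 3 fell, with Clec4g at −1.03. Of 6 measured adipocyte markers in LSEC, Fabp4, which endothelium also makes, rose. The part of these cell types in the members' differences was not tested.

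By Euclidean distance over the 12 libraries, after centring within each table, the nearest patterns among 11889 genes were read as a description. Nearest to Cidea were Pls1 (distance 2.24), Shc2 (2.38) and Lcn2 (3.25), with log2 differences of 5.63, 6.13 and 4.38 in liver. Nearest to Cidec were Mtnr1a (1.74), Cdcp1 (1.86) and Fermt1 (1.94), and nearest to Plin2 were Parp9 (0.315), Slc52a2 (0.339) and Ddx31 (0.382).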

How the data were processed

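RNA-seq libraries of mouse liver and LSEC were compared between NASH diet and chow, 3 libraries per group. The submitters' processing notes name STAR, HTSeq, FastQC, Seurat and DESeq2 and the mm10 build, without versions or settings. The deposited tables hold a normalized read signal per library, and the authors' log2 fold change, p-value and adjusted p-value per gene. Division by the smallest nonzero value in a library returned whole numbers, within 0.01, in all libraries.

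Log2(normalized reads + 1) was fitted per tissue with limma 3.58.1 (R 4.3.3) with a variance trend, no filter, and Benjamini-Hochberg adjustment over all genes. The liver minus LSEC difference used the standard errors of both fits and a t distribution with Welch-Satterthwaite degrees of freedom. The tables were normalized separately, so levels are compared across tissues only per Alb read, as a rate over total reads (RPM) or by rank. Alternatives were pseudocounts of 0.1 and 10, a mean of at least 10, edgeR 4.0.16 with TMM and DESeq2 1.42.0 on recovered reads, total-read scaling, a replicate block in liver, and each library left out; the code was tested on simulated data. Exon lengths came from GENCODE M21 and promoters from RefSeq (GRCm38.p6). LSEC columns carry no replicate number and were numbered by position as names only. For the numbered liver libraries, same-number correlations of deviations were −0.027, −0.032 and 0.179 over 12420 genes. Deviations within a group of 3 are tied to each other, so these values cannot show whether the libraries were paired.

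Members and gene lists (lipolysis partners, droplet formation, PPAR, hypoxia and cell markers) were chosen with earlier results of these data known. Genes to name were all members, and per list the 3 smallest adjusted p in liver and 2 in LSEC. The 3 genes nearest to Cidea, Cidec and Plin2, among genes with a liver mean of at least 50, were added. Not all picks are printed: in LSEC those of the hepatocyte, macrophage and stellate lists are left out, as is Adrb3 of the adipocyte list. In liver those of the endothelial list are left out, as are Col1a2 and Pdgfrb of the stellate list. Nop9 was chosen for its overlap with Cideb, and others are said to be chosen after their values were seen.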

Additional observations from a re-analysis of the deposited data

Results flagged for a closer look

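The change with diet differed between liver and LSEC, by a test of the difference itself, for 3 members. Among the 15788 shared genes 19.5% differed, 11.5% more positive and 7.99% less positive in liver. The log2 difference in liver minus that in LSEC was −1.65 for G0s2, −0.72 for Plin2 and −0.85 for Pnpla2. G0s2 fell in liver (−0.70) and had a log2 difference of 0.95 in LSEC that did not pass. Plin2 passed in neither tissue alone (−0.23 in liver and 0.49 in LSEC). Pnpla2 fell in liver (−0.87), with −0.02 in LSEC. The adjusted p values were 0.0324, 0.0201 and 0.0101 with the t distribution described above. With scaling by total reads the calls of G0s2 (0.0547) and Plin2 (0.0930) were lost. Both were also lost in some fits with 1 library left out, as given above. The part of hepatocyte and macrophage RNA in the LSEC libraries was not tested.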

How the results depend on the processing

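In liver, 9 members were called (7691 of all 16703 genes), and 6 to 8 with 1 library left out (5863 to 7407 genes). With a pseudocount of 10, 8 were called (7646 genes), and 9 by edgeR (7559). DESeq2 called 7 (7432), and scaling by total reads 7 (8782). In LSEC, 2 members were called (1319 of all 16273 genes), against 1 with a pseudocount of 10 (1290 genes). With a mean of at least 10 required, 1 was called (1315 of 13816 genes tested). With 1 library left out, limma called 0 to 2 members (124 to 1171 genes). In those fits 3 to 6 members had an unadjusted p under 0.05, a share not counted over all genes. With all libraries edgeR called 2 members (1165 genes) and DESeq2 3 (2503). The tissue difference was called for 3 members (3078 of 15788 genes), for 6 with a normal distribution (4513) and 5 with a pseudocount of 10 (3400). It was called for 2 to 4 members with 1 library left out (1843 to 3178 genes). Scaling by total reads also gave 3 (3923 genes), but 2 more positive and 1 less positive in liver (3249 and 674 genes). Signs turned with scaling by total reads for liver Plin2 (0.18), LSEC Plin3 (0.11) and LSEC Pnpla2 (0.12), none of which was called. With 1 library left out, the log2 difference spanned −0.15 to 0.071 for LSEC Plin3, −0.16 to 0.10 for LSEC Pnpla2, and −0.53 to 1.33 for the tissue difference of Plin4. The cause was not tested. With the liver replicate number as a block, 8 members were called, Hilpda being lost (adjusted p = 0.0512); NASH 1 correlated best with chow 2, NASH 2 with chow 1 and NASH 3 with chow 3. No paired analysis was possible in LSEC because the columns carry no replicate number. At this depth LSEC Cidea rests on 57 reads against 1.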
